A study of Mus musculus with 6 samples.

Results

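The genes described here encode linker histones and replacement histone variants, and all 10 had a row in the deposited table of 25353 genes and passed the filter on low values. The list was drawn up by histone type, not by a cutoff on measured values, although earlier results of these data were known: H1foo, H1f0, H1fx, H2afz, H2afv, H2afy, H2afy2, H2afj, H3f3a and H3f3b. RNA was measured in germinal vesicle (GV) oocytes, taken from secondary follicles of C57BL/6J mice, in 3 wild-type (WT) libraries and 3 libraries labelled knockout (KO), and each library was made from a pool of 5 oocytes. The mice are stated to be 8 weeks old in the protocol, while the age label reads P1. The series title and design text give the knockout as Mfn2-/-, whereas the genotype label and the treatment protocol read Mfn1-/-; Mfn2 encodes mitofusin 2, which fuses mitochondria, and the labels name no Cre driver or other allele.

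Histones package DNA into nucleosomes. Core histones (H2A, H2B, H3 and H4) form the particle, and a linker histone (H1) binds where DNA enters and leaves it. Most histone genes are expressed with DNA replication and give mRNAs that end in a stem-loop without a poly(A) tail. Replacement variants are instead made from polyadenylated mRNA outside S phase, and a nonreplicating cell such as the oocyte relies on them to renew its nucleosomes. H1foo encodes the oocyte linker histone, which replaces somatic linker histones during oocyte growth and is later lost in the early embryo. H3f3a and H3f3b both encode H3.3, which is placed at transcribed genes and, after fertilization, in paternal chromatin. H2A.Z (H2afz and H2afv) marks promoters, macroH2A (H2afy and H2afy2) carries a large extra domain and is linked to silent chromatin, and H2afj encodes H2A.J, an H2A with a distinct carboxyl end.

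Libraries held 6450191 to 7992598 reads assigned to genes. Of the 25353 genes, 0 lay on the mitochondrial chromosome, so these totals and the shares taken from them leave its transcripts out. Values are normalized read counts: the number of reads of a gene divided by a size factor of its library. Mfn2 stood at 25.5, 38.1 and 32.3 in WT and at 5.25, 5.28 and 4.50 in KO, while Mfn1 averaged 340 ± 36.3 in the WT libraries and 386 ± 10.3 in those labelled KO (SD, n = 3 per group). The values of Mfn2 thus follow the series title, and those of Mfn1 do not follow the genotype label. All 12 oocyte markers searched for, Gdf9, Bmp15 and Zp3 among them, had reads in both groups, though Sohlh1 had only 0 or 1 per library. Their summed value was 131552 to 157513 in WT and 103701 to 142154 in KO. Of the 11 tested none passed, 6 had fold changes below 0 and 5 above. Log2 fold changes of Zp1, Zp2 and Zp3 were -0.61, -0.66 and -0.67 (limma adjusted p 0.0851, 0.0759 and 0.0983). Markers of theca, luteal and stromal cells (8 of 11 with a row) had summed values of 773 (WT replicate 1), 48.4 (WT replicate 2) and 129 (WT replicate 3), but 12.6 to 16.9 in the KO libraries, and 3 of the 4 tested fell. Cyp11a1 stood at 604, 13.9 and 92.3 in WT and 3.15, 5.28 and 4.50 in KO, Lhcgr at 16.6, 2.79 and 10.2 against 1.05, 0 and 0, and Dcn at 53.2, 28.8 and 14.8 against 8.40, 6.34 and 2.70. Col1a1, Col1a2 and Col3a1 were at 0 in all KO libraries, but also at 0 in WT replicate 3 and, for the last 2, in WT replicate 2. Granulosa markers (11 of 11 with a row) summed to 628 to 816 in WT and 523 to 656 in KO. Cyp19a1 held the largest part, at 363 to 445 in WT and 301 to 336 in KO, while Amh, Foxl2 and Amhr2 had 0 to 3 reads per library. Immune markers (5 of 6) summed to 23.2 to 78.7 in WT and 12.7 to 17.9 in KO, with 3 immune markers at 0 in all KO libraries. Endothelial markers (5 of 6) summed to 196 to 254 in WT and 182 to 269 in KO, and surface epithelium markers (6 of 6) to 26.0 to 42.1 and 18 to 36.9. Pecam1 held most of the endothelial sum, at 149 to 187 in WT and 138 to 213 in KO, while Cdh5 had 0 or 1 read per library. The part of these other cells in the results was not tested. Nothing in the labels ties a pool to its own mouse, so all tests measure only the spread between these pools.

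Per kilobase of exon, the 10 genes spanned more than 3 orders of magnitude. H1foo was by far the most abundant, at 49278 ± 726 normalized read counts per kb in WT. By its mean over the WT and KO libraries together, it ranked at place 3 of 24215 genes with a known exon length. The H3.3 genes followed, with H3f3b at 3833 ± 348 and H3f3a at 1518 ± 145. H2afj stood at 459 ± 33.9, H2afv at 271 ± 3.49 and H1f0 at 230 ± 12.2. H2afz came next at 164 ± 79.4, and H1fx reached 72.6 ± 20.9. The macroH2A genes were lowest, with H2afy at 19.6 ± 2.08 and H2afy2 at 16.8 ± 6.77 (SD, n = 3 WT libraries throughout). Neighbours in this order were not all distinct: the 3 WT values of H2afz, 107 to 255 per kb, spanned those of H1f0, 222 to 244, and the values of H2afy and H2afy2 overlapped as well. H2afv, at 268 to 275, lay above both H1f0 and H2afz in every WT library. With the longest transcript as the length instead of all annotated exons, H2afz moved up to place 5 of the 10 in WT, at 273 per kb. By that length H2afy averaged 33.2 per kb in WT, against 16.8 for H2afy2.

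**Figure D1:**
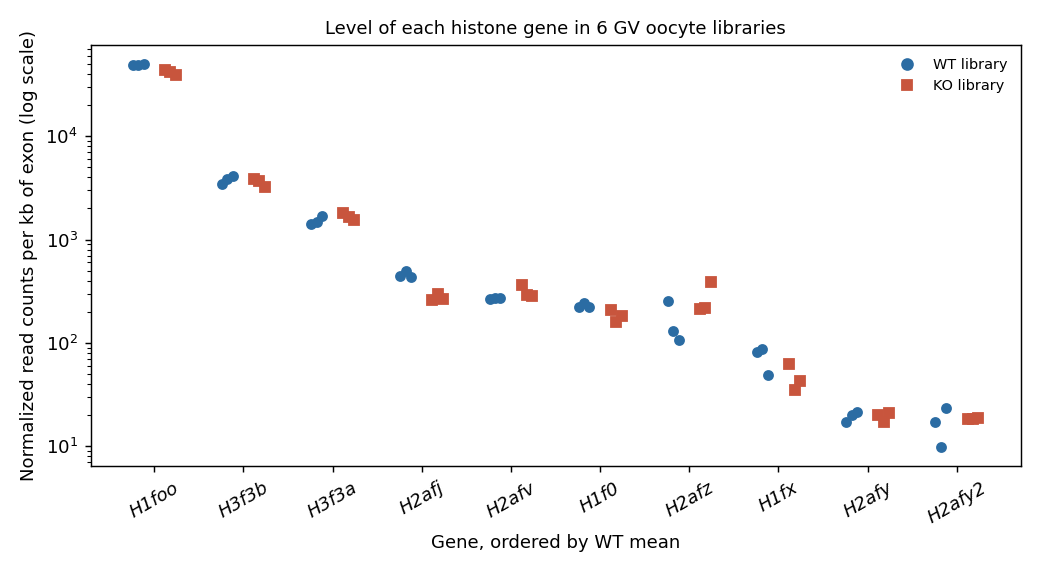
Normalized read counts per kb of exon (log axis) of the 10 genes, ordered by their WT mean, in each of the 3 WT (circles) and 3 KO (squares) libraries. H1foo lies above all others in every library, and H2afj is the gene whose KO values sit clearly below its WT values.

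H2afj was the only one of the 10 genes that passed the test between the groups, and it fell. None rose. Among all 18762 genes tested, 1.41% were called lower and 1.87% higher in KO, so the 10 genes differ from that background by a single gene. The adjusted p was under 0.05 for H2afj alone, and the unadjusted p was under 0.05 for 5 of the 10 genes (H1foo, H1f0, H1fx, H2afz and H2afj), beside 3374 of the 18762 genes tested. The 3 WT and 3 KO values did not overlap for H1foo, H1f0, H2afv and H2afj, 4 of 10 genes, against 23.2% of all genes tested. The median log2 fold change of the 10 genes was -0.05, beside -0.01 over all genes tested.

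**Figure D2:**
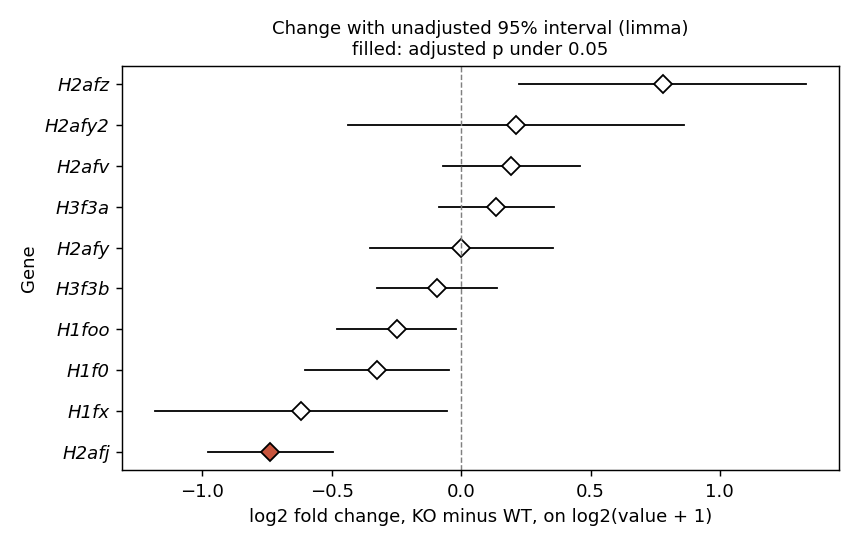
Log2 fold change of KO against WT for each gene, on the log2(value + 1) scale, with its unadjusted 95% interval from limma. H2afj, the filled diamond, is at -0.74, and 5 intervals leave 0 outside.

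H1foo, the linker histone of the oocyte (chromosome 6, 115944938 to 115950236, plus strand, GRCm38), stood at 58657, 58701 and 60189 normalized read counts in WT and 52545, 49760 and 47144 in KO. Every KO value lay below every WT value, and the KO mean was 84.2% of the WT mean. The log2 fold change was -0.25 (SE 0.11, unadjusted 95% interval -0.48 to -0.02), with an unadjusted p of 0.0341 and an adjusted p of 0.231, so the difference did not pass the test over all genes. The adjusted p ran from 0.0598 to 0.432 over the 16 alternatives tried, DESeq2 giving the smallest. The log2 fold change ran from -0.29 to -0.19. Because the groups did not overlap, leaving out 1 library could not reverse its direction. As a share of all assigned reads, H1foo took 0.82%, 0.828% and 0.816% in WT, compared with 0.76%, 0.711% and 0.688% in KO. The lowest WT share had a Wilson 95% interval of 0.809% to 0.822% and the highest KO share one of 0.753% to 0.766%, which cover counting error only. None of the 45 windows of 75 bases taken along its transcript matched another gene.

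H1f0 encodes the replacement linker histone of quiescent and differentiated somatic cells (deposited interval on chromosome 15, 79028212 to 79030499, plus strand). Its values were 457, 501 and 459 in WT and 433, 325 and 379 in KO, without overlap. The log2 fold change was -0.33 (SE 0.13, adjusted p = 0.196). H1fx, another replacement linker histone (chromosome 6, 87980421 to 87981637, minus strand), had 99.8, 106 and 59.1 in WT and 76.7, 42.3 and 52.2 in KO. Its groups overlapped because WT replicate 3 fell among the KO values, and the log2 fold change of -0.62 (SE 0.27, adjusted p = 0.229) became -0.13 once its dependence on GC content and length had been fitted and subtracted. H1fx has the highest GC content of the 10 genes (71.3%). All 7 H1 genes tested, these 3 and 4 of the replication-dependent cluster, had fold changes below 0, as did 51.3% of all genes tested, and no H1 gene passed the test. That count was 6 of 7 without WT replicate 1 and without KO replicate 1. Hist1h1c, Hist1h1d and Hist1h1e, among the 7, rested on 4 to 23, 2 to 12 and 0 to 19 reads per library. The SEs of their fold changes were 0.57, 0.55 and 0.85.

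No shift in the balance among linker histones was detectable. Per kb, H1foo exceeded the sum of H1f0 and H1fx by 160-, 148- and 184-fold in WT and by 160-, 215- and 173-fold in KO. The log2 ratio differed by 0.15 between the groups (two-sided exact permutation p = 0.5), less than the SD within KO of 0.22, and by 0.02 to 0.24 with 1 library left out, lowest without KO replicate 2 and highest without KO replicate 1. With 3 libraries against 3, p cannot go below 0.1 in these ratio tests.

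**Figure D3:**
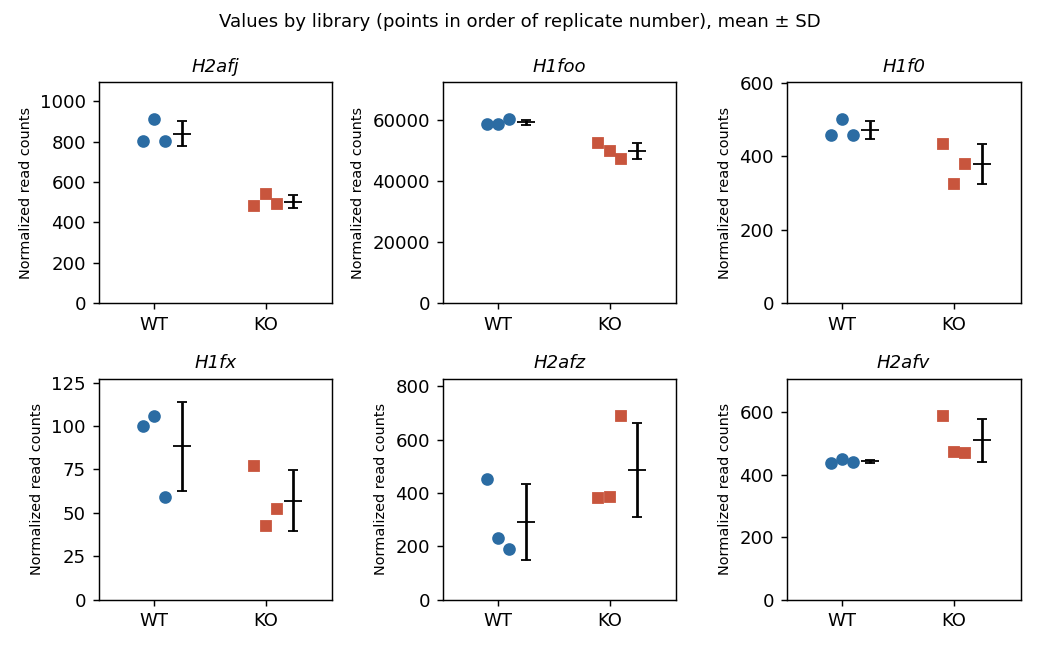
Normalized read counts of 6 genes in each library, with points in order of replicate number and the mean ± SD (n = 3) beside them; each vertical axis starts at 0. H2afj is lower in all 3 KO libraries (479 to 539) than in all 3 WT libraries (802 to 911), and H1foo is lower by a smaller proportion.

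H2afj (chromosome 6, 136808244 to 136810074, plus strand) had 805, 911 and 802 normalized read counts in WT and 479, 539 and 490 in KO. The groups were far apart compared with their spread: the mean was 840 ± 62.1 for WT against 503 ± 31.8 for KO (SD, n = 3 per group). H2afj fell by 0.74 on the log2 scale (SE 0.11, 95% interval -0.98 to -0.50, limma adjusted p = 0.00443), to 59.9% of its WT mean. The call rested on 726 to 980 reads per WT library and 456 to 545 per KO library. It held in each of the 16 alternatives, with adjusted p between 1.55e-06 and 0.0327 and log2 fold changes between -0.79 and -0.68. Without WT replicate 1, the library with the highest theca, stromal and immune marker sums, the fold change was -0.77 (adjusted p = 0.0145). The theca and stromal sums of WT replicates 2 and 3, 48.4 and 129, were still above those in KO, 12.6 to 16.9. The part of such cells in the fall was therefore not tested by that fit. In libraries made from whole pools, less RNA per oocyte and fewer cells that carry the transcript cannot be told apart.

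The replication-dependent H2A gene Hist2h2aa1 (chromosome 3, 96245497 to 96246082, plus strand) also fell, and its coding sequence resembles that of H2afj. Its values were 679, 543 and 528 in WT and 328, 337 and 322 in KO, without overlap. It fell by 0.82 (SE 0.13, adjusted p = 0.00487), and its call was lost after subtracting the dependence on GC content and length (-0.47, adjusted p = 0.0687). The coding sequences of the 2 genes are identical at 347 of 387 aligned bases (89.7%). The 60-base stretch in which they differ least is coding bases 307 to 366 of both, given here with the base that differs in capitals; it lies at chr6:136808646-136808705 in H2afj and at chr3:96245887-96245946 in Hist2h2aa1 (plus strand in both, GRCm38, GENCODE M21 transcripts).
H2afj: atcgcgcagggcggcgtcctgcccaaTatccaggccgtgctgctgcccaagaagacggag
Hist2h2aa1: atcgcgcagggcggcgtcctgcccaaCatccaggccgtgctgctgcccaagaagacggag
The closest 75-base pair of windows in the coding sequences differed at 2 bases. Of the 71 windows along the H2afj transcript, most of which is not coding, 5 (7.04%) matched another gene with at most 1 mismatch. All 21 windows of Hist2h2aa1 did so, among them those shared with its copy Hist2h2aa2, so the value of Hist2h2aa1 is uncertain.

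H2afz encodes H2A.Z.1 (chromosome 3, 137864487 to 137866922, plus strand), the form that mammalian development cannot do without. Its values were 452, 232 and 190 in WT and 381, 385 and 690 in KO. WT replicate 1 lay above 2 of the KO libraries, so the groups overlapped, and KO replicate 3 stood highest. The log2 fold change was 0.78 (SE 0.26, 95% interval 0.22 to 1.33, adjusted p = 0.116). It did not pass with all 6 libraries, but without WT replicate 1 it was 1.15 and passed (adjusted p = 0.0206), and without WT replicate 3 or KO replicate 3 it was 0.52 or 0.50. H2afz shared the largest percentage of its windows among the 10 genes: 27 of 40 (67.5%) matched another gene, chiefly Tmcc1, whose annotated transcripts hold 24 of them, and Gm8203.

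H2afv encodes H2A.Z.2 (chromosome 11, 6427229 to 6444443, minus strand), and none of its 63 windows matched another gene. It had 438, 449 and 441 in WT and 589, 471 and 469 in KO. The groups did not overlap, though KO replicates 2 and 3 lay close to WT, and the log2 fold change of 0.19 (SE 0.13, adjusted p = 0.451) became 0.09 without KO replicate 1. Coding sequences of H2afz and H2afv are identical at 304 of 384 bases (79.2%), while 125 of 128 residues agree when they are translated. The 60 coding bases that differ least (238 to 297 of both) show how reads of these paralogs can be separated, with the 8 differing bases in capitals; they lie at chr3:137866053-137866112 on the plus strand and at chr11:6429124-6429183 on the minus strand (GRCm38).
H2afz: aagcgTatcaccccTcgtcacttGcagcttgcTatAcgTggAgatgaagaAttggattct
H2afv: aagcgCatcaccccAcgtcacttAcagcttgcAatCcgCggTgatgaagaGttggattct
Per kb, the ratio of H2afz to H2afv was 0.95, 0.474 and 0.396 in WT and 0.595, 0.75 and 1.35 in KO. WT replicate 1 lay above 2 KO libraries here too. The log2 ratio was 0.59 higher in KO (two-sided exact permutation p = 0.4), less than the SD of 0.67 in WT and 0.61 in KO. It was 0.96 without WT replicate 1, 0.33 without WT replicate 3 and 0.25 without KO replicate 3.

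H3f3a (chromosome 1, 180800832 to 180813943, minus strand) had 4928, 5141 and 5892 normalized read counts in WT and 6264, 5800 and 5446 in KO. H3f3b (chromosome 11, 116021912 to 116027962, minus strand) had 10293, 11584 and 12345 in WT and 11479, 10984 and 9629 in KO. Both overlapped between the groups, with log2 fold changes of 0.14 (SE 0.11, 95% interval -0.09 to 0.36, adjusted p = 0.552) and -0.09 (SE 0.11, -0.32 to 0.14, 0.722). Summed per kb, transcripts for H3.3 stood at 4865, 5360 and 5830 in WT and 5645, 5346 and 4790 in KO, which overlap almost fully.

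Within each library H3f3b exceeded H3f3a, and by less in KO. The ratio of H3f3b to H3f3a per kb was 2.46, 2.65 and 2.47 in WT and 2.16, 2.23 and 2.08 in KO. These values did not overlap, and the log2 ratio was lower in KO by a difference of -0.23, which is larger than the SD of 0.06 in WT and 0.05 in KO. The two-sided exact permutation p of 0.1 is the smallest that 3 against 3 allows, and it was 0.4 after adjustment over the 4 ratios computed, so no call can be made. Since the ratios of the groups did not overlap, leaving out a library could not reverse the direction, so that is no check of it. The difference ran from -0.25 (without KO replicate 2) to -0.19 (without WT replicate 2). Both genes encode the same 136 residues when translated, from coding sequences that are identical at 313 of 408 bases (76.7%). Coding bases 70 to 129, the 60 that differ least, are given with the 10 differing bases in capitals (GENCODE M21 transcripts, GRCm38); aligned coding windows of 75 bases, the length of a read, differed at 13 bases or more.
H3f3a: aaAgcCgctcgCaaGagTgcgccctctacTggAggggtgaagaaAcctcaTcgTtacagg
H3f3b: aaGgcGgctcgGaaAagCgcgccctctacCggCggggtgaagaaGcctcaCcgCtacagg
Other genes share more of their transcripts. For H3f3a, 34 of 111 windows (30.6%) matched other genes, including H3f3a-ps1, H3f3a-ps2 and H3f3c, and the long noncoding gene Gm17275 overlaps its exons on the other strand by 638 bases. For H3f3b, 12 of 98 windows (12.2%) did so. The levels of both are therefore somewhat uncertain, that of H3f3a more so.

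**Figure D4:**
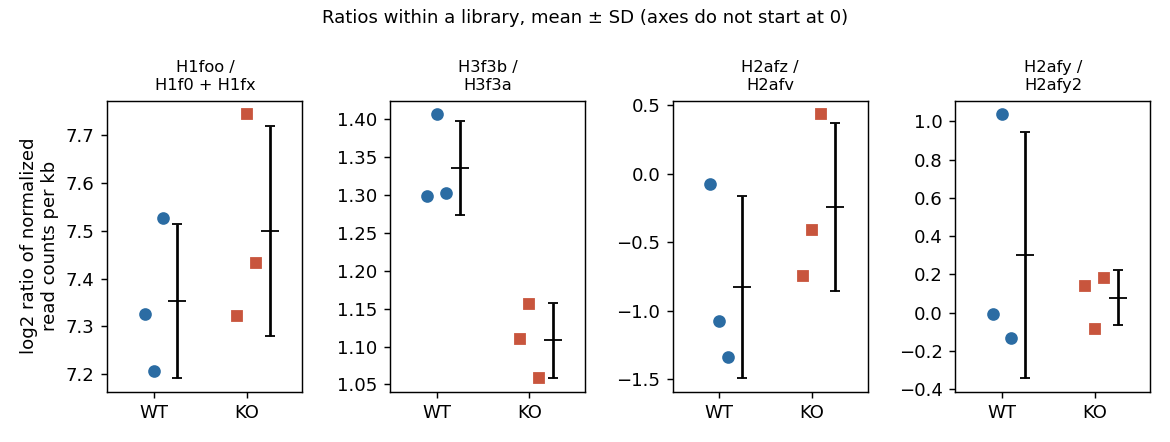
Log2 ratios of normalized read counts per kb within each library for 4 pairings of related genes, with the mean ± SD (n = 3) beside the points; the vertical axes do not start at 0. Only the ratio of H3f3b to H3f3a separates the groups, with 1.30 to 1.41 in WT and 1.06 to 1.16 in KO.

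The macroH2A genes were low, and neither passed the test. H2afy, which encodes macroH2A1 (chromosome 13, 56073619 to 56136361, minus strand), had 118, 138 and 145 in WT and 138, 118 and 144 in KO. Its means of 133 ± 14.2 and 133 ± 13.3 gave a log2 fold change of -0.000508 (95% interval -0.35 to 0.35, adjusted p = 0.999), whose sign turned under 2 scalings and in 3 fits with a library left out. H2afy2, which encodes macroH2A2 (chromosome 10, 61738665 to 61784147, minus strand), had 37.7, 21.4 and 50.8 in WT and 39.9, 40.1 and 40.5 in KO. It rested on 23 to 55 reads per library, and its log2 fold change of 0.21 had a 95% interval of -0.44 to 0.86 (adjusted p = 0.78). WT replicate 2 was the lowest, and the sign turned without it. The per-kb ratio of H2afy to H2afy2 was 0.996, 2.06 and 0.912 in WT and 1.10, 0.941 and 1.14 in KO (exact permutation p = 0.9). Its level depended on the length used: the mean log2 ratio in WT was 0.30, but 1.06 with the longest transcript.

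The ends of the annotated transcripts bear on which histone mRNAs a poly(A)-primed library can hold. The motif CTTTTNAG, the core of the histone stem-loop, was searched on the transcript strand in the last 100 bases of each gene's longest transcript. It occurred in 0 of the 10 genes, in 20 of 54 replication-dependent genes (37.0%) and in 1.09% of 24215 genes. The polyadenylation signals AATAAA or ATTAAA occurred in the last 50 bases of 8 of the 10 genes, of 12 of the 54 replication-dependent genes and of 58.8% of all genes. For H2afy and H3f3b, another annotated transcript carried a signal. Hist2h2aa1, which fell beside H2afj, had the stem-loop core, and none of its annotated transcripts carried a signal. A match in these letters is a description of the annotation only.

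Replication-dependent histone genes were low beside H1foo in these poly(A)-primed libraries. Such libraries can miss mRNAs without a poly(A) tail, so the sums do not measure the level of these genes in the oocyte. Their 54 rows summed to 2951 to 3391 normalized read counts in WT and 2597 to 3014 in KO, against 58657 to 60189 for H1foo alone in WT. Hist1h2bc held the largest share of that sum, at 1690 ± 121 in WT and 1868 ± 333 in KO. Of the 32 genes tested, 2 fell (Hist2h2aa1 and Hist1h2br) and none rose, beside 1.41% lower and 1.87% higher among all genes tested. The median log2 fold change of the 32 was -0.41, beside -0.01 over all genes tested. Hist1h2ap, singled out after its values were seen, had -1.28 (adjusted p = 0.0557) with overlapping groups, and it passed in edgeR (adjusted p = 0.0371) and DESeq2 (0.00446) and with the replicate number as a block (0.0144). Hist1h2br fell by 3.17 (SE 0.57, adjusted p = 0.00832) on 18, 19 and 16 reads in WT and 3, 1 and 0 in KO, and 87.1% of its windows matched other genes.

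**Figure D5:**
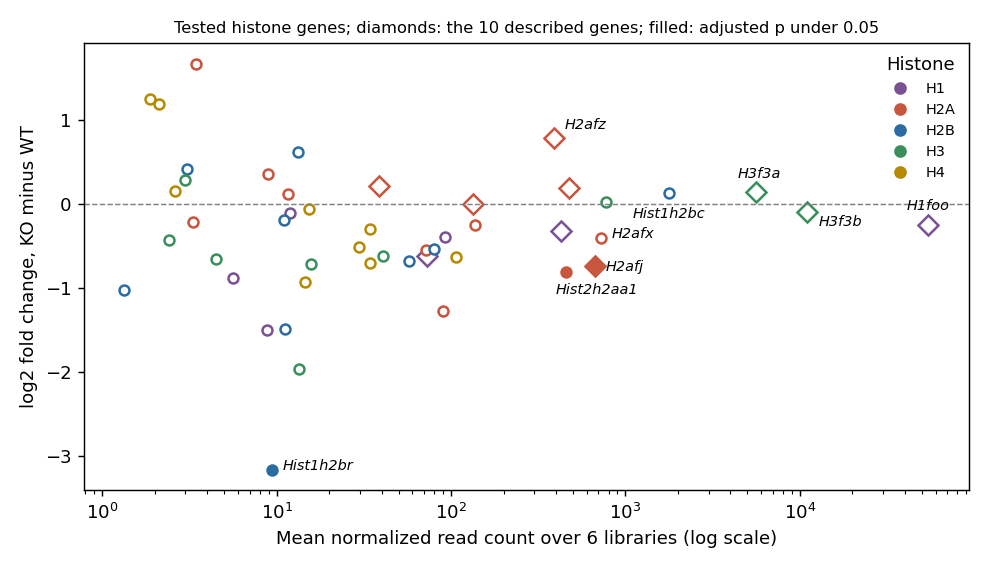
Log2 fold change of KO against WT against the mean normalized read count (log axis) for the 48 histone genes tested, coloured by histone; diamonds are the 10 genes described and filled symbols passed the test. The 3 filled symbols are H2afj, Hist2h2aa1 and the low gene Hist1h2br, all below 0.

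Other histone variants did not pass the test. Of 14 listed, 8 had a row and 6 were tested. H2afx, whose product marks DNA breaks when phosphorylated, came closest: it had 777, 830 and 870 in WT and 713, 545 and 618 in KO, without overlap, and a log2 fold change of -0.41 (SE 0.12, adjusted p = 0.0761). It passed in DESeq2 (adjusted p = 0.0378) and without KO replicate 1 (-0.51, 0.014), but was -0.23 (0.351) after subtracting the dependence on GC content and length. The germ-cell H2B gene Hist1h2ba had a fold change of -1.49 (adjusted p = 0.132) on 2 to 19 reads per library. It passed without KO replicate 1 (-2.02, adjusted p = 0.0325) and was -0.93 without KO replicate 3. The 5 of the 6 tested variants with a fold change below 0 included both of these, and 51.3% of all genes tested were below 0. The median of the 6 was -0.48, beside -0.01 over all genes tested.

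Calls were few among the genes for the machinery that places and removes these variants. They were also few among all genes tested (1.41% lower and 1.87% higher). Of 14 genes for H2A.Z exchange, 1 fell and none rose, and the median log2 fold change was -0.08. That gene was Srcap, the ATPase that loads H2A.Z, with 35.5, 44.6 and 31.4 in WT and 5.25, 17.96 and 12.6 in KO. It fell by 1.69 (SE 0.40, adjusted p = 0.0325). Without any one WT library the fold change was -1.80 to -1.55 but did not pass (adjusted p 0.0844 to 0.133), and 90.1% of its windows match the model Gm42715 or Gm28198. Of 7 genes for H3.3 deposition none passed (median -0.32, beside -0.01 over all genes tested). The smallest p-values were those of Ubn1 (-0.43, adjusted p = 0.0888) and Cabin1 (-0.47, 0.0959), subunits of or partners with the HIRA complex. Ubn1 passed without KO replicate 1 (-0.49, 0.0381) and Cabin1 without KO replicate 3 (-0.62, 0.0426). Of 4 linker histone chaperones none passed (median 0.000273). Nap1l4 stood at -0.36 (adjusted p = 0.16) and Nasp at -0.21 (0.333). Without KO replicate 1 these were -0.19 and -0.10, and Nasp was -0.37 (adjusted p = 0.0833) after subtracting the dependence on GC content and length.

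Genes whose values ran most like those of H1foo over the 6 libraries were Helq (Pearson r = 0.995), Dppa3 (0.993) and Ssx2ip (0.991), out of 8978 genes with a mean value of at least 50. Helq encodes a DNA helicase, and Dppa3 a maternal protein that shields the egg genome from demethylation. Dppa3 had 30475, 30094 and 31334 in WT and 26331, 24627 and 24002 in KO. The groups did not overlap and the KO libraries had the same order as in H1foo, a likeness by which it was chosen. Its log2 fold change of -0.29 did not pass (limma adjusted p = 0.129), though it did in DESeq2 (0.0187) and without KO replicate 1 (0.033). Ssx2ip did not pass (-0.29, limma adjusted p = 0.255). Helq stood at -0.75 and passed (limma adjusted p = 0.0063), but not without WT replicate 3 (0.0513). The 6 points of H1foo fall into 2 separate groups, and 96 genes had r above 0.95.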

How the data were processed

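Per the labels' protocols, Smart-Seq2 (a poly(A)-primed method) produced the cDNA, and Nextera XT libraries were read as pairs of 75 bases; neither step keeps strand or molecular identifiers. Builds GRCm38 and mm10 appear in the submitters' processing notes, as do STAR, cutadapt, FastQC, DESeq and DESeq2. The counting step is not given in the sources used here, nor is its annotation. The authors deposited a normalized signal per gene: reads divided by a size factor, per the file headers, which name Partek and DESeq2. Divided by what 1 read is worth in its library, 100% of values were whole (tolerance 0.1 reads).

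Groups came from the sample titles. The 18762 genes that reached a value of 1 in 3 or more libraries were compared on log2(value + 1) with limma-trend (limma 3.58.1, R 4.3.3), all 3 KO against all 3 WT and no covariate, with Benjamini-Hochberg adjustment over all genes and a threshold of 0.05. This scale understates changes of low genes. The script was tested on simulated data. edgeR 4.0.16 and DESeq2 1.42.0 on recovered reads were alternatives; edgeR called 451 genes higher and 338 lower. Ratios per kb used the union of exons in GENCODE M21 (95.5% of genes matched by symbol). Windows of 75 bases, every 25 bases, were aligned to GENCODE transcripts with minimap2 2.31-r1302. Same-numbered WT and KO libraries did not deviate together (correlations -0.08, -0.02 and -0.04).

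The members and lists were chosen with earlier results of these data known. Named beside the 10 genes are, in each of 5 histone and chaperone lists, up to 4 genes that passed (lowest p first) or else the 2 with the lowest p, defining markers of cell types, Mfn1 and Mfn2 as a check of the labels, and the 3 genes most like H1foo; Hist1h2bc and Hist1h2ap were named after their values were seen.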

Additional observations from a re-analysis of the deposited data

How the results depend on the processing

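Of the 10 genes, H2afj kept its call in all alternatives, and 1 other gene gained one (H2afz without WT replicate 1). With 1 library left out, 0 to 1 of the 10 were called higher; 1 was called lower each time. All genes called higher ranged from 71 to 459 and lower from 41 to 430 with 1 library left out, against 351 and 264. Counts of lower genes were 401 in DESeq2 and 175 with the replicate number as a block, where higher genes numbered 246. The block changed no call among the 10 genes. Higher genes made up 57.1% of calls, 73.5% with scaling to library totals and 46.2% after subtracting the dependence on GC content and length. The fold change of H2afy turned to 0.057 with library totals, to 0.010 with TMM, and ranged from -0.088 to 0.082 with 1 library left out; that of H2afy2 ranged from -0.12 to 0.48. The cause was not tested. The 4 ratio differences moved by less than the SD pooled over both groups. With 3 libraries per group that outcome was fixed in advance, so it is no check of them. The difference of H2afy to H2afy2 turned from -0.22 to 0.15 without WT replicate 2. That of H2afz to H2afv ranged from 0.25 to 0.96 with 1 library left out. A count of 0 allows 3 reads, or 0.375 to 0.465 CPM, for counting error only. H1fx and H2afy2, at 23 to 114 reads, had the largest SE of the fold change among the 10 genes (0.27 and 0.31). That of H2afz was close (0.26).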
